A study of Mus musculus with 10 samples.

Results

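The complement genes described here are 9 genes chosen by symbol, of 54309 genes in the annotation that the reads were assigned to. They encode the chains of C1q (C1qa, C1qb and C1qc), the C1r protease (C1ra), the components C4 (C4b), C3 and factor B (Cfb), the C3a receptor (C3ar1) and the C1 inhibitor (Serping1). All 9 had enough reads to be tested. Their mRNA was measured by RNA-seq in the ipsilateral lumbar (L)4 and L5 dorsal root ganglia (DRG) of C57BL6/J mice aged 6 to 8 weeks, 24 h after the left sciatic nerve was cut (axotomy) or exposed without being cut (sham). There were 10 libraries, 3 after axotomy and 2 after sham in each sex, each made from the pooled ganglia of 2 mice. No group was left without surgery, so both groups of a comparison carried the exposure of the nerve and the suture.

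Complement is a cascade of plasma and tissue proteins that tags debris, microbes and synapses for removal. In the classical pathway C1q binds the target, the proteases C1r and C1s then cleave C4 and C2, and the resulting enzyme cleaves C3, while factor B amplifies C3 cleavage in the alternative pathway. Most plasma complement comes from the liver, but C1q is made mainly by macrophages and microglia, and fibroblasts, glia and other tissue cells make C1r, C1s, C3, C4 and the C1 inhibitor locally. In the injured peripheral nervous system complement is best known for marking degenerating myelin and for attracting macrophages.

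Each library held 55258476 to 90111671 estimated counts (read pairs). Replicate libraries of a group differed by more than counting error (chi-square over its degrees of freedom 7.32 to 108). All 8 sensory neuron markers and all 6 satellite glia markers listed as defining the tissue were present, with a summed neuron level of 4107 to 5961, and X- and Y-linked genes matched the labelled sex of every library. Levels are given as rescaled TPM, that is the deposited TPM (length-corrected transcript abundance) multiplied by 1 factor per library (0.928 to 1.11) so that levels have the same scale as the tests. TPM takes transcript length into account, so levels can be compared between genes. Tests used the quasi-likelihood F test of edgeR with Benjamini-Hochberg adjustment over 20836 genes, and a gene was called changed at padj under 0.1. The labels give the libraries as separate samples, and the p-values measure the spread between these pools of 2 mice.

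The 9 genes spanned a wide range of levels, in an order that was nearly the same in every library. Serping1 was the most abundant, with a mean of 187 rescaled TPM over the 10 libraries, and made up 53.2% to 66.6% of the summed level of the 9 genes. C4b followed at 41.4, and the C1q chains at 29.01 (C1qb), 27.6 (C1qa) and 20.2 (C1qc). C1ra at 4.82, C3 at 3.39, C3ar1 at 1.19 and Cfb at 1.08 were expressed far lower. The order of neighbours held in 10 of 10 libraries except for C4b over C1qb and C1qb over C1qa, which held in 9 of 10, and C3ar1 over Cfb, which held in 7 of 10. Thus C4b and C1qb, C1qb and C1qa, and C3ar1 and Cfb were not separated in every library.

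In males, axotomy raised all 9 genes. The call rate among all genes tested was 21.8% for higher genes in males. The increase was largest for C3 (log2FC 1.82) and the C1q chains (1.53 to 1.59) and smallest for Serping1 (0.67). In every male axotomy library, each of the 9 genes stood above both male sham libraries, a pattern that 29.3% of all genes showed. In females none of the 9 was called, against 10.4% of all genes called higher, and only C1qa passed at an unadjusted p under 0.05 or by DESeq2. The median log2FC of the 9 genes was 1.23 in males, where all genes had a median of 0.03, and 0.28 in females, where all genes had a median of 0.00. The difference between the male and the female response was called for 0 of the 9 genes by edgeR, whereas DESeq2 called 6 of them, the fit with a replicate block 1 (C3) and the fit without male axotomy 2 called 8, so this result depended on the method and on that library. Because RNA came from whole ganglia, a change in the number of expressing cells and a change in mRNA per cell cannot be told apart.

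**Figure D1:**
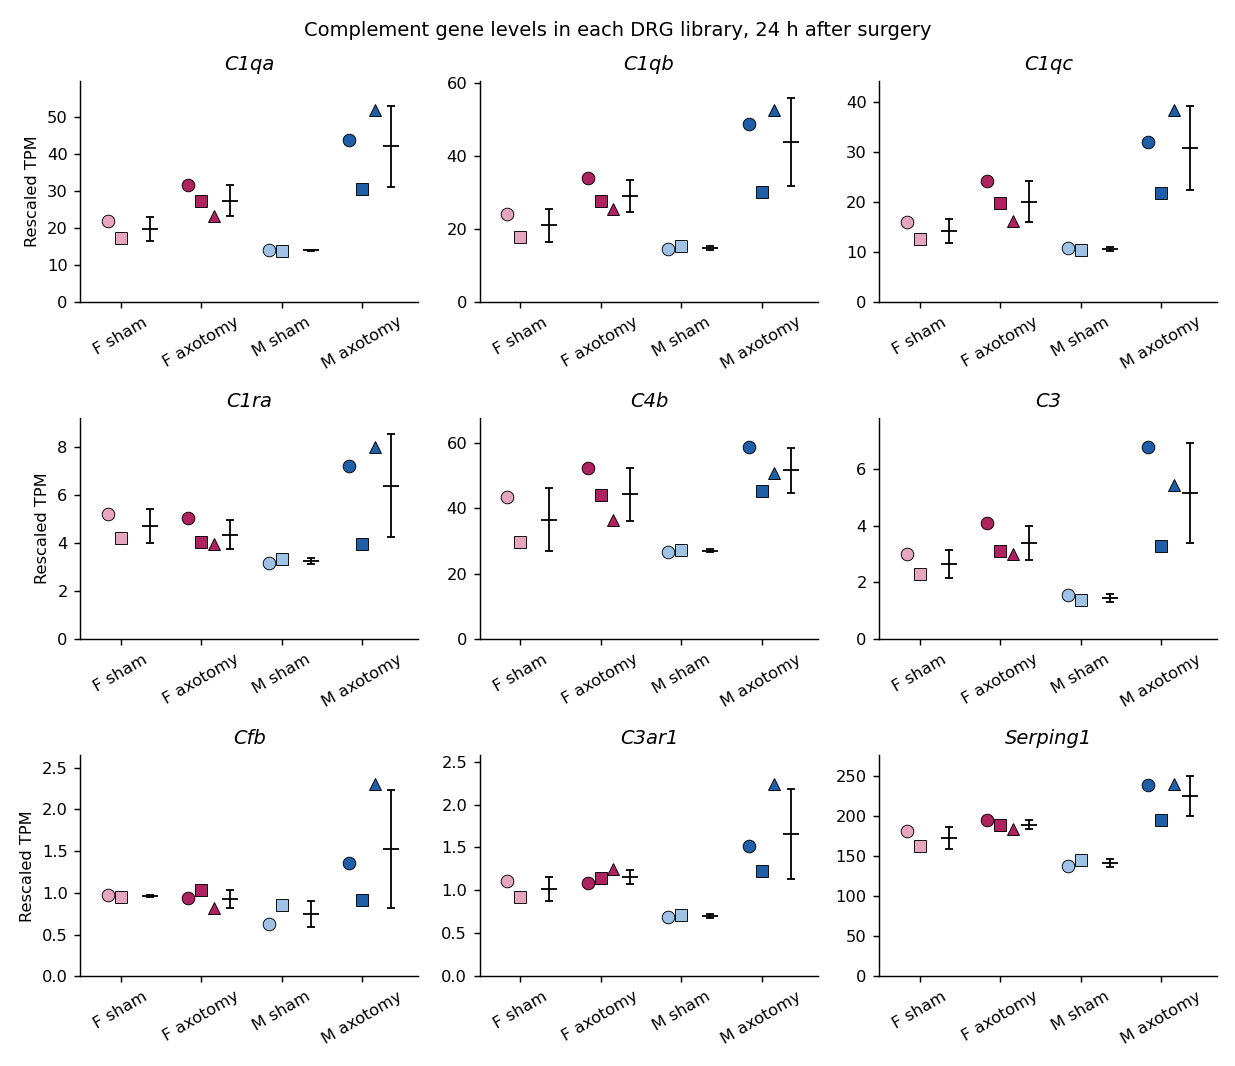
Level of each complement gene (vertical axis, rescaled TPM, starting at 0) in each library, by group (F, female; M, male). Circles, squares and triangles are replicates 1, 2 and 3, and the bar beside them is the mean ± SD (n = 2 sham, n = 3 axotomy). All 3 male axotomy libraries lie above both male sham libraries for all 9 genes, and the square of male axotomy 2 is the lowest of its group throughout.

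The 3 C1q chains assemble into the molecule that recognises the target, and their genes lie side by side, with C1qc between C1qb and C1qa on chromosome 4 and no other coding gene between them (RefSeq). The start regions of C1qb and C1qc, taken from a RefSeq table (GRCm38.p6), are shown because these genes moved together, running 5′ to 3′ from 250 bases before to 50 after the start, both from the minus strand, with C1qb at chr4:136886151-136886450 and C1qc at chr4:136892865-136893164. Capitals mark GAGGAA on either strand, the core of sites bound by PU.1, a transcription factor of macrophages.
C1qb: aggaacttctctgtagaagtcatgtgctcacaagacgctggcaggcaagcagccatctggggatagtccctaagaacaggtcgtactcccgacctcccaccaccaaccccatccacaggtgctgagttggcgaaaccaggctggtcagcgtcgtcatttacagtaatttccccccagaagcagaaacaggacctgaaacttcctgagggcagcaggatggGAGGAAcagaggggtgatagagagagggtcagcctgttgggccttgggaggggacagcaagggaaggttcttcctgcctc
C1qc: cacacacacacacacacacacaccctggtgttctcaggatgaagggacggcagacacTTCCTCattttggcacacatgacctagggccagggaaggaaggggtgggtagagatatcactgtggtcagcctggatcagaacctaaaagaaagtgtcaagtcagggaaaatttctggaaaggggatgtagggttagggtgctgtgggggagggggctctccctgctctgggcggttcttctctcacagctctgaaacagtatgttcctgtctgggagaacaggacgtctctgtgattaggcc
In C1qb the match ran from −30 to −25 relative to the start, and in C1qc from −193 to −188 on the opposite strand. Of 32851 start regions in the table, 28.3% held these letters, so a match is common.

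In sham libraries, C1qa stood at 22.0 and 17.4 rescaled TPM in females and at 14.1 and 13.9 in males. After axotomy it stood at 31.7, 27.4 and 23.3 in females and at 43.9, 30.5 and 52.0 in males. All 6 axotomy libraries were above all 4 sham libraries. The log2FC of C1qa was 1.59 (SE 0.21, padj = 0.001 by edgeR) in males, a 3.01-fold increase, and 0.48 (SE 0.21, padj = 0.153, 95% interval 0.02 to 0.93) in females. C1qb had sham levels of 24.2 and 17.8 in females and 14.5 and 15.2 in males, and axotomy levels of 33.9, 27.7 and 25.5 in females and 48.6, 30.2 and 52.6 in males. C1qc had sham levels of 15.9 and 12.5 in females and 10.9 and 10.3 in males, and axotomy levels of 24.2, 19.8 and 16.1 in females and 32.0, 21.8 and 38.3 in males. The axotomy and sham libraries of both chains did not overlap in either sex, although the lowest female axotomy level of C1qc (16.1) was close to the highest female sham level (15.9). C1qb rose with log2FC 1.56 (SE 0.23, padj = 0.00152) and C1qc with log2FC 1.53 (SE 0.24, padj = 0.00167) in males by edgeR. In females their log2FC was 0.47 (SE 0.22, padj = 0.197) and 0.50 (SE 0.23, padj = 0.18). The chains kept a nearly fixed proportion in every library, with C1qa at 1.298 to 1.44 times C1qc, C1qb at 1.33 to 1.58 times C1qc and C1qa at 0.903 to 1.01 times C1qb.

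Levels of C1q were also set beside those of 10 macrophage markers in the same library. Summed macrophage markers ranged from 76.5 to 99.1 rescaled TPM in female sham, 57.1 to 68.7 in male sham, 82.9 to 138 in female axotomy and 111 to 202 in male axotomy libraries. In males all 10 markers were called higher, beside 21.8% of all genes. In females Aif1, which encodes a calcium-binding protein of macrophages, was called higher (log2FC 0.80, padj = 0.0662), the scavenger receptor gene Cd163 lower (log2FC −0.79, padj = 0.069), and the other 8 were not called. The log2 difference between summed C1q and the mean marker was 3.98 and 3.79 in female sham and 3.95 and 3.85 in male sham libraries. It was 4.08, 4.13 and 4.10 in female axotomy and 4.28, 4.01 and 4.04 in male axotomy libraries, above the sham libraries in each case. Axotomy shifted the C1q to marker difference by 0.22 in females and 0.21 in males. With these 10 markers, the C1q level relative to the mean macrophage marker was thus slightly higher after axotomy in both sexes. The markers did not rise alike. Mean Aif1 went from 2.83 in sham to 10.2 after axotomy in males and from 3.82 to 6.66 in females. Mean Csf1r went from 5.22 to 8.91 in males and from 5.97 to 5.80 in females. The shift therefore holds against the mean of the markers, not against each of them. With 4 markers (Csf1r, Cd68, Adgre1 and Aif1) in place of 10 the mean shift was 0.13, and male axotomy 2 lay below male sham 1. With a pseudocount of 1 TPM the mean shift was 0.36, against 0.21 here. The pseudocount was added to the markers only, so a larger one shrinks the rise of low markers and enlarges the shift by construction.

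**Figure D2:**
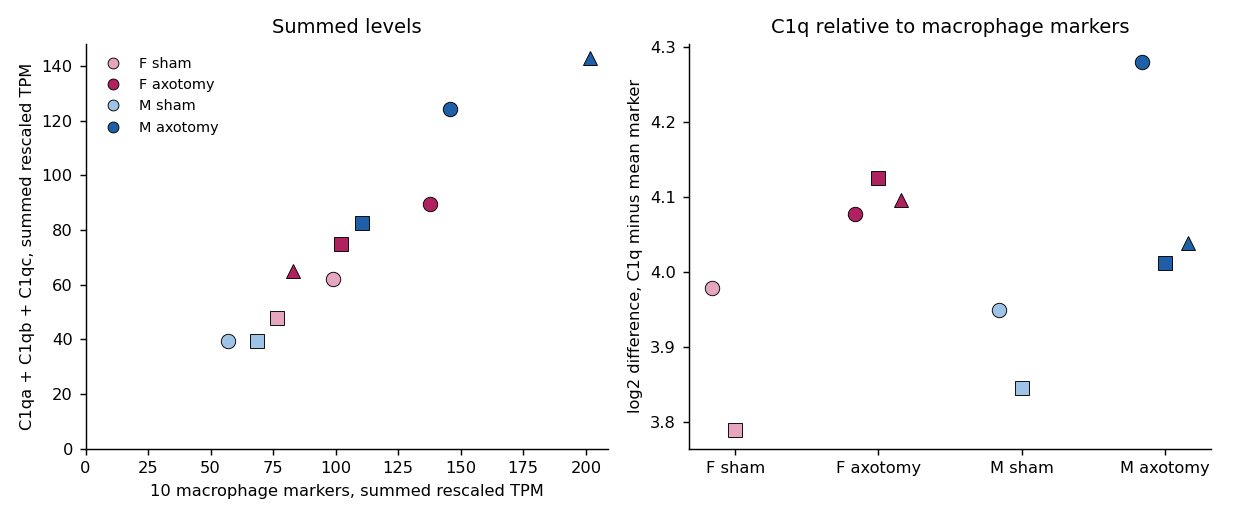
Left, summed level of C1qa, C1qb and C1qc (vertical axis) against that of 10 macrophage markers (horizontal axis), both in rescaled TPM, with 1 point per library. Right, log2 of summed C1q minus the mean log2 marker level by group (F, female; M, male), on an axis that does not start at 0; circles, squares and triangles are replicates 1, 2 and 3, sham libraries lie at 3.79 to 3.98 and axotomy libraries at 4.01 to 4.28.

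Other cell type markers also moved with the male response. Of these, all 8 fibroblast and meningeal markers were higher in males after axotomy, from a summed 507 to 519 rescaled TPM in sham to 747 to 1606. Also higher were all 6 markers of myelinating Schwann cells, all 5 of erythrocytes and 4 of 6 of satellite glia, while 6 of 8 sensory neuron markers were lower. Of all genes in males, 21.8% were called higher and 20.1% lower. Summed erythrocyte markers stood at 3311 to 3709 in male sham and at 6384 to 22047.5 in male axotomy libraries, lowest in male axotomy 2. In females they stood at 4540 to 6697 in sham and at 2825 to 9321 after axotomy. In females no fibroblast marker rose, the collagen genes Col1a1 and Col1a2 fell, and 1 of the 6 satellite glia markers was higher and 2 lower. Hepatocyte markers, listed because the liver makes plasma complement, summed to 0.566 to 1.34, and fibrinogen Fgb was at 0 in every library. In males 2 of 8 neutrophil and monocyte markers (Cxcr2, log2FC 0.81, and Ccr2, 1.303) and 2 of 6 T and NK cell markers (Cd8a, 0.87, and Trbc2, 3.02) rose, and the endothelial markers Cldn5 (−0.47) and Flt1 (−0.74) fell. In females Trbc2 rose and no neutrophil, monocyte or endothelial marker was called. The summed neutrophil and monocyte markers stood at 472 in female axotomy 1 and at 104 to 267 in the other libraries, and female axotomy 1 was the highest female axotomy library for the C1q chains, C1ra, C4b, C3 and Serping1. With and without this library, 0 of the 9 genes were called in females, beside 20.1% and 9.67% of all genes. Skeletal muscle markers summed to 116 in female axotomy 2 and to 3.06 to 24.3 elsewhere, and none was called. How far these markers account for the complement levels was not tested.

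C1r, the protease that C1q activates first, is encoded next to C1s1 on chromosome 6. C1ra stood at 5.21 and 4.21 rescaled TPM in female sham and at 5.05, 4.06 and 3.96 in female axotomy libraries. In males it stood at 3.15 and 3.33 in sham and at 7.22, 3.95 and 8.01 after axotomy. The female groups overlapped, whereas the male groups did not, and male axotomy 2 lay well below the other male axotomy libraries. C1ra rose in males with log2FC 0.97 (SE 0.26, padj = 0.0154 by edgeR) and had log2FC −0.11 (SE 0.25, padj = 0.808) in females. Without male sham 1 its male log2FC was 0.93 (padj = 0.107) and no longer passed. The near copy C1rb held at most 0.305% of the summed reads of both genes.

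C4, cleaved by the C1 complex, gives the fragment that covalently tags the target. C4b stood at 43.4 and 29.6 rescaled TPM in female sham, and at 52.3, 44.1 and 36.3 in female axotomy libraries, which overlapped. In males it stood at 26.7 and 27.3 in sham and at 58.7, 45.2 and 50.8 after axotomy. C4b rose in males with log2FC 0.93 (SE 0.18, padj = 0.00447 by edgeR) and had log2FC 0.28 (SE 0.18, padj = 0.345) in females. The close paralog C4a held 1.21% to 2.05% of the reads of both genes, and reads that fit either gene may have been split between them.

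The TPM of C4b was divided between a protein-coding transcript (C4b-201, 65.3% to 77.5%), a transcript subject to nonsense-mediated decay (C4b-202, 9.22% to 12.3%) and a retained-intron transcript (C4b-203). C4b-203 is 749 bases long and C4b-201 5379, so the share of C4b-203 in reads was smaller than in TPM. How reliably Salmon divided reads between these transcripts was not tested. In sham libraries C4b-203 made up 14.9% and 13.4% in females and 14.7% and 12.3% in males. After axotomy it made up 25.5%, 19.6% and 17.8% in females and 21.0%, 11.2% and 19.4% in males. The share was above every sham library in 5 of 6 axotomy libraries, the exception being male axotomy 2 with the lowest share of all. The protein-coding transcript alone stood at 31.9 and 22.8 rescaled TPM in female sham and at 34.1, 30.8 and 26.1 in female axotomy libraries. In males C4b-201 stood at 19.7 and 20.6 in sham and at 40.0, 35.0 and 36.2 after axotomy, so the male groups were apart for this transcript as well.

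**Figure D3:**
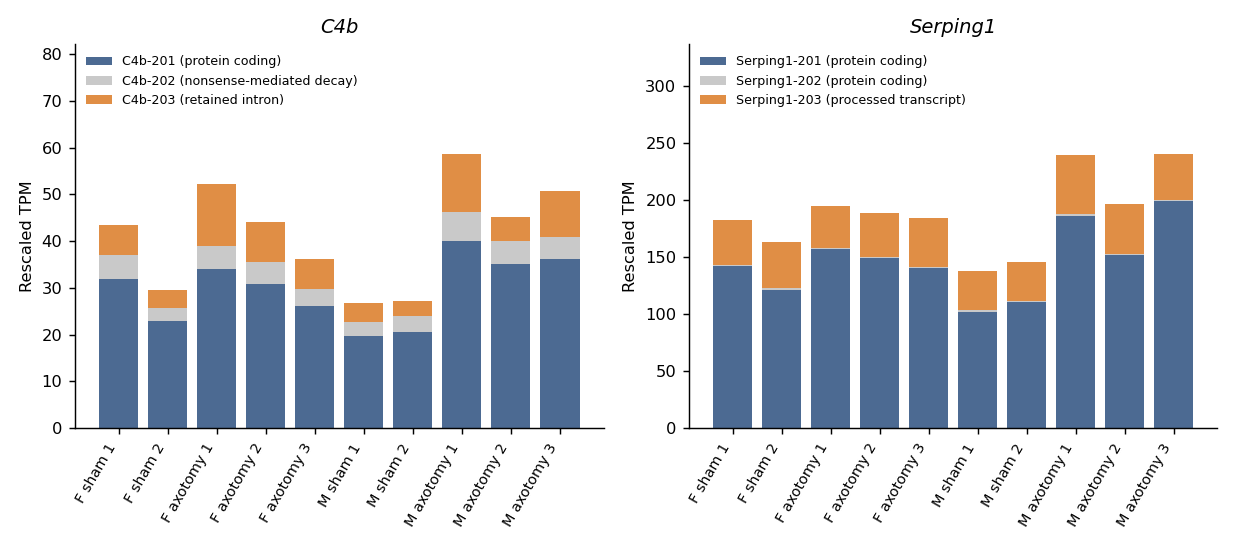
Level of each transcript of C4b and Serping1 (stacked bars, rescaled TPM from 0) in each library (F, female; M, male), colored by transcript with its annotated type in the legend. The retained-intron transcript of C4b takes 25.5% of female axotomy 1 and 11.2% of male axotomy 2, and the protein-coding transcripts carry most of both genes in every library.

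C3, the central component on which all pathways converge, had its reads in 1 protein-coding transcript in every library. Its start region lies at chr17:57228087-57228386 on the minus strand (RefSeq, GRCm38.p6, 5′ to 3′) and is shown because C3 had the largest increase of the 9 genes. Capitals mark TTGCNNAA, letters of sites bound by C/EBP factors of the acute-phase response, from −45 to −38, and the TATA box letters TATAAA from 15 to 20 relative to the annotated start.
C3: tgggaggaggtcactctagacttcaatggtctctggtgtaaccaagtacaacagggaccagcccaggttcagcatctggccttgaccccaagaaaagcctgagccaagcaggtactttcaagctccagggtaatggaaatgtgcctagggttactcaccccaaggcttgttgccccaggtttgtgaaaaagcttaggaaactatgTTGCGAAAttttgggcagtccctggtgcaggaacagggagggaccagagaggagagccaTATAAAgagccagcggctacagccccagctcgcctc
Of all start regions in the table, 10.8% held the C/EBP letters and 13.6% the TATA box letters on either strand. The same search was made for NF-kB (GGANTTTCC, 1.25% of start regions), interferon (TTCNNNGAA of GAS sites, 8.3%; GAAANNGAA like ISRE, 8.56%) and PU.1 letters. The entries of C1qb, C1qc, C1ra, C3 and C3ar1 were searched. NF-kB and ISRE-like letters were in none of these 5 windows, GAS letters were in C1ra, PU.1 letters in C1qb, C1qc and C1ra, C/EBP letters in C1ra and C3, and TATA letters in C3 and C3ar1. No entry was used for C1qa, C4b, Cfb and Serping1.

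C3 stood at 2.99 and 2.29 rescaled TPM in female sham and at 4.09, 3.11 and 2.99 in female axotomy libraries. In males it stood at 1.56 and 1.36 in sham and at 6.77, 3.28 and 5.43 after axotomy. The lowest female axotomy library equalled female sham 1 at this precision, so the female groups were not separated, while the male groups were far apart. C3 rose with log2FC 1.82 (SE 0.28, padj = 0.0017 by edgeR) in males, a 3.53-fold increase, and had log2FC 0.36 (SE 0.26, padj = 0.4) in females. The difference between the sexes was 1.46 (95% interval 0.62 to 2.29, padj = 0.244).

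Factor B, the protease of the alternative pathway convertase, is encoded next to C2, its counterpart in the classical pathway, on chromosome 17. Cfb was the least abundant of the 9 genes, with 74.0 to 191 estimated counts per library. It stood at 0.973 and 0.948 rescaled TPM in female sham, at 0.934, 1.03 and 0.819 in female axotomy libraries, at 0.632 and 0.855 in male sham and at 1.35, 0.914 and 2.30 in male axotomy libraries. The female groups overlapped, and male axotomy 2 was only slightly above male sham 2. Cfb rose in males with log2FC 1.02 (SE 0.33, padj = 0.038 by edgeR), a call that rested on male sham 1, without which log2FC was 0.82 (padj = 0.233). In females the log2FC of Cfb was −0.05 (SE 0.33, padj = 0.939, 95% interval −0.78 to 0.68). The read-through model Gm20547 that overlaps Cfb held 0% to 28.8% of the summed reads of both, with the highest share in female axotomy 1. How Salmon divided Cfb reads between transcripts also varied. Cfb-201 held 0% of the gene's TPM in 3 libraries and 68.4% to 87.1% in the other 7.

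C3ar1, the receptor by which C3a acts on myeloid cells, stood at 1.11 and 0.919 rescaled TPM in female sham and at 1.09, 1.14 and 1.25 in female axotomy libraries. Male levels were 0.688 and 0.718 in sham and 1.51, 1.22 and 2.24 after axotomy. The female groups overlapped, and the lowest male axotomy level was above both male sham levels. C3ar1 rose in males with log2FC 1.23 (SE 0.25, padj = 0.00441 by edgeR) and had log2FC 0.19 (SE 0.24, padj = 0.654) in females.

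Serping1, the C1 inhibitor that blocks C1r and C1s, stood at 182 and 163 rescaled TPM in female sham and at 195, 189 and 184 in female axotomy libraries. In males it stood at 138 and 145 in sham and at 239, 196 and 240 after axotomy. The lowest female axotomy level lay just above the highest female sham level and the male groups were far apart. Serping1 rose in males with log2FC 0.67 (SE 0.10, padj = 0.00125 by edgeR), a 1.59-fold increase, and had log2FC 0.13 (SE 0.10, padj = 0.398) in females. The protein-coding Serping1-201 held 73.8% to 82.7% of its TPM and the processed transcript Serping1-203 16.9% to 25.3%.

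**Figure D4:**
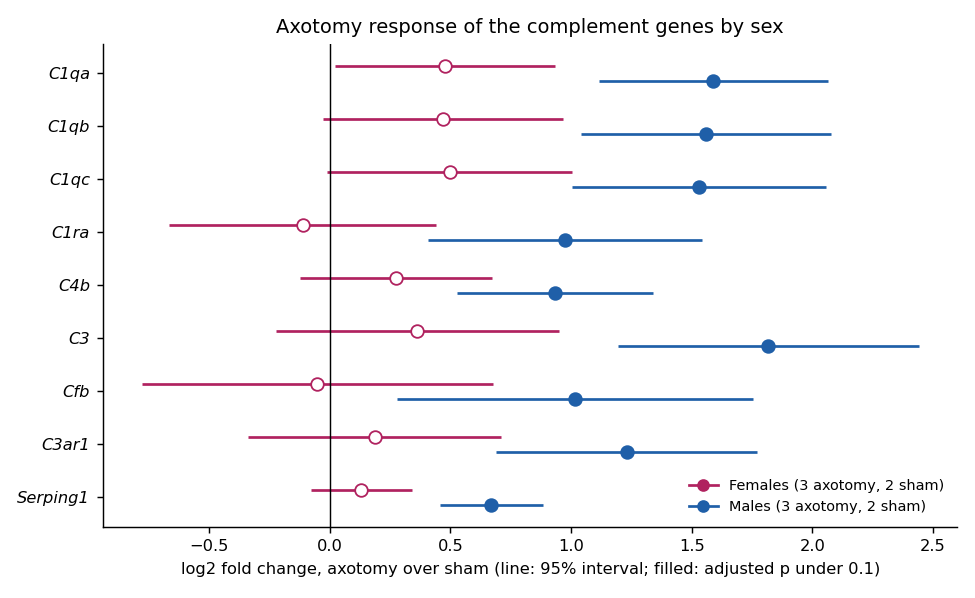
log2 fold change of axotomy over sham (horizontal axis) for each complement gene in females and males, with the 95% interval as a line and filled points where padj is under 0.1 by edgeR. All 9 male points are filled and lie between 0.67 and 1.82, and the 9 female points are open and lie between −0.11 and 0.50.

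Axotomy and sham libraries of females did not overlap for C1qa, C1qb, C1qc and Serping1, with all 3 axotomy libraries higher. Of all genes, 26.2% showed this in females and 13.5% showed it over both sexes, as these 4 genes did. On the deposited TPM the female groups stayed apart for C1qa and C1qb only, whereas the male groups stayed apart for all 9. The 2 scales differ because the median gene moved by −0.11 (females) and −0.15 (males) on the log2 scale in deposited TPM. With deposited TPM as the scale, 1102 of 3808 genes called in females were higher, against 2162 of 4191, and in males 2441 of 8954, against 4543 of 8732. The number of complement genes called was still 0 in females and 9 in males.

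With equal weight for the sexes, 8 of the 9 genes rose after axotomy (23.9% of all genes were called higher), from log2FC 0.40 (SE 0.07, padj = 0.00121) for Serping1 to 1.09 (SE 0.19, padj = 0.00163) for C3 by edgeR. Cfb had log2FC 0.48 (SE 0.23, padj = 0.129), but it was called with the reads of Gm20547 added (log2FC 0.61, padj = 0.0555) and without male axotomy 2 (log2FC 0.62, padj = 0.0203). C1ra passed with log2FC 0.43 (SE 0.18, padj = 0.0807), a call lost in 9 of 17 alternatives, among them no filter on low counts, the replicate block and the deposited TPM scale.

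All 9 genes had a larger log2FC in males than in females, by 0.54 (Serping1) to 1.46 (C3), with padj of 0.236 to 0.424, and each had an unadjusted p under 0.05. Of all genes, 0.0192% were called for this difference by edgeR and 2368 had an unadjusted p under 0.05, while DESeq2 called 6 of the 9 genes, beside 3.12% of all genes. Without male axotomy 2, in which each of the 9 genes was the lowest of the male axotomy group, 8 of the 9 genes were called for this difference, beside 10.5% of all genes. Without that library, and also in a fit of the female libraries alone, the 3 C1q chains were called higher in females, beside 13.6% and 15.4% of all genes. Male axotomy 2 was also the deepest library, with 90111671 estimated counts. Its pairs with male axotomy 1 and 3 gave the largest chi-square over degrees of freedom of all replicate pairs (71.3 and 108). Whether male axotomy 2 or the other male axotomy libraries better represent the male response was not tested.

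In sham, male libraries were below female libraries for each of the 9 genes without overlap, which 20.5% of all genes showed. None of the 9 was called by edgeR or DESeq2 (0.0432% of all genes were called by edgeR), and at an unadjusted p under 0.05 C3 (log2 difference −0.86), Serping1 (−0.29) and C4b (−0.44) passed, as did 670 genes in all. Female sham 1 was the highest sham library for all 9 genes. After axotomy the direction was the opposite, with male minus female log2 differences of 0.22 (C4b) to 0.70 (Cfb). None of the 9 was called by edgeR, against 1.52% of all genes, 8 had an unadjusted p under 0.05, as did 3201 genes in all, and DESeq2 called 3, beside 7.56% of all genes. Without male axotomy 2, 8 of the 9 were called, beside 17.3% of all genes. Mean levels in males were thus lower than in females after sham and higher after axotomy for each of the 9 genes, without passing the test in either state.

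A list of 46 further complement genes was examined by role, of which 36 could be tested. In females 3 rose, 4 fell and 29 were not called, beside 10.4% of all genes called higher and 9.74% lower. In males 17 rose, 6 fell and 13 were not called, beside 21.8% higher and 20.1% lower. Their median log2FC was 0.01 in females and 0.48 in males. These counts changed when single libraries were left out, as did those of all genes. In females 0 were called when female sham 1 was left out and 1 when female sham 2 was, beside 6.87% and 3.98% of all genes called in either direction. In males 13 and 14 were called without male sham 1 and 2, beside 23.0% and 22.8% of all genes. In females 2 were called without female axotomy 1 and 3 without female axotomy 2, beside 9.67% and 11.4% of all genes.

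Among proteases and convertase components, 3 of 6 tested rose in males, beside 21.8% of all genes. C1s1, the protease that C1r activates, rose with log2FC 1.27 (padj = 0.00309), C2 with 0.73 (padj = 0.00494) and C4a with 0.68 (padj = 0.0442) by edgeR, and the lectin pathway protease gene Masp1 fell with −0.27 (padj = 0.0786). Of 18 alternatives, the call was lost in 8 for Masp1 and in 5 for C4a. In females 0 of the 6 were called by edgeR, by DESeq2 or at an unadjusted p under 0.05. With 20.1% of all genes called in females by edgeR, 0 of 6 does not set this role apart. C1s1 stood at 11.8 and 8.32 rescaled TPM in female sham, 10.6, 9.47 and 9.39 in female axotomy, 7.85 and 7.02 in male sham and 17.4, 12.9 and 23.7 in male axotomy libraries. After axotomy it was higher in males than in females (log2 difference 0.87, padj = 0.0928), a call lost in 11 of 18 alternatives.

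Of 5 lectin pathway recognition genes tested, Colec10, a collectin gene, rose in both sexes. It stood at 0.226 and 0.455 rescaled TPM in female sham and 0.252 and 0.201 in male sham, and at 1.68, 1.20 and 0.962 in female axotomy and 1.17, 1.02 and 0.577 in male axotomy libraries. All axotomy libraries were above all sham libraries. By edgeR, Colec10 had a female log2FC of 1.92 (SE 0.38, padj = 0.0113) and a male log2FC of 2.02 (SE 0.40, padj = 0.00414). The female call was lost without female sham 1 (padj = 0.103). Colec12, a scavenger receptor collectin gene, rose in males (log2FC 0.90, padj = 0.00575) and was higher in males than in females after axotomy (0.71, padj = 0.0996), and the mannose-binding lectin gene Mbl2 rose in males (0.78, padj = 0.0915). The sex difference of Colec12 was lost in 12 and the rise of Mbl2 in 11 of 18 alternatives, which for Mbl2 included DESeq2. Of the alternative pathway activators, properdin (Cfp), which stabilises the C3 convertase, rose in males (0.72, padj = 0.0149) and Cfd was not called. The male call of Cfp was lost in 1 of 18 alternatives. None of the 3 terminal pathway genes tested (Hc, C7 and C8g) was called in either sex by edgeR, by DESeq2 or at an unadjusted p under 0.05. Over all genes edgeR called 20.1% in females and 41.9% in males, so 0 of 3 does not set this role apart. C6, C8a, C8b and C9 were too low to test.

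Of 7 receptor genes tested, 5 rose in males, beside 21.8% of all genes. The C5a receptor gene C5ar1 had log2FC 1.64 (padj = 0.00295), the second C5a receptor gene C5ar2 0.77 (padj = 0.0322), and the genes of the CR3 and CR4 integrin chains Itgam 1.13 (padj = 0.00639), Itgax 1.37 (padj = 0.0797) and Itgb2 1.02 (padj = 0.0325). The call was lost in 7 of 18 alternatives for Itgax, in 2 for C5ar2 (without male sham 1 or 2) and in 1 for Itgb2. C5ar1 stood at 1.35 and 0.807 rescaled TPM in female sham, 1.78, 1.34 and 1.53 in female axotomy, 0.774 and 0.797 in male sham and 2.61, 1.67 and 3.09 in male axotomy libraries. The male groups of C5ar1 were apart, and female sham 1 lay within the female axotomy range. Cr2, the CD21 receptor gene of B cells, rose in females (log2FC 1.73, padj = 0.0307), from 0.156 and 0.172 in sham to 0.402, 0.701 and 0.557, and was not called in males. The female call of Cr2 was lost without female sham 1 or 2 (padj up to 0.189). Male sham libraries already stood at 0.369 and 0.399 for Cr2.

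Regulators moved in both directions. Complement factor I (Cfi, log2FC 0.72, padj = 0.0594), the membrane attack complex inhibitors Cd59a (0.64, padj = 0.00184) and Cd59b (0.89, padj = 0.0209), vitronectin (Vtn, 0.88, padj = 0.00735) and the membrane regulator Cr1l (0.27, padj = 0.0153) rose in males by edgeR. Cd59a also rose in females (0.28, padj = 0.0934). In contrast, 4 regulators fell in both sexes. Decay-accelerating factor (Cd55), which dissociates C3 convertases at the cell surface, stood at 351 and 327 rescaled TPM in female sham, 358 and 336 in male sham, 224, 228 and 275 in female axotomy and 200, 248 and 280 in male axotomy libraries. Every axotomy library was below every sham library for Cd55, with a female log2FC of −0.49 (SE 0.13, padj = 0.0372) and a male log2FC of −0.51 (SE 0.13, padj = 0.0133). The sushi domain gene Susd4 fell with log2FC −0.57 (padj = 0.072) in females and −0.92 (padj = 0.00477) in males. The CUB and sushi domain genes Csmd1 (−0.23, padj = 0.063, and −0.32, padj = 0.00825) and Csmd3 (−1.17, padj = 0.0397, and −1.10, padj = 0.0235) fell in females and males, respectively. Clusterin (Clu) fell in males (−0.35, padj = 0.066). Calls of regulators in females were lost in 4 (Cd55 and Csmd3), 7 (Susd4) and 8 (Csmd1 and Cd59a) of 18 alternatives, including those without female sham 1 or 2. In males they were lost in 5 (Clu), 4 (Cfi), 2 (Cr1l) and 1 (Cd55, Cd59b and Csmd3). For Cr1l these included the deposited TPM scale (padj = 0.568 by edgeR). Sensory neuron markers fell too, 3 of 8 in females and 6 of 8 in males, and their part in these decreases was not tested.

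**Figure D5:**
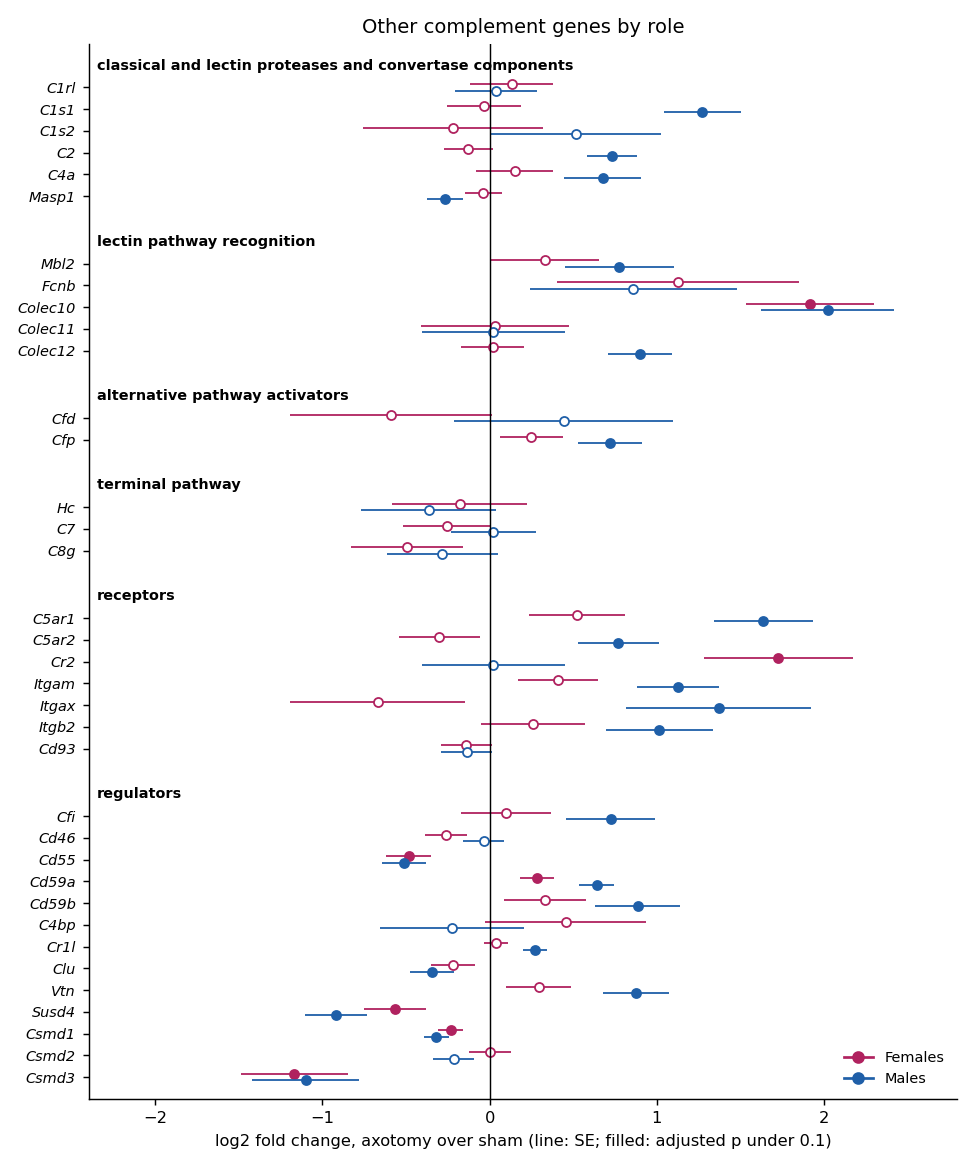
log2 fold change of axotomy over sham (horizontal axis) of the 36 other complement genes tested, grouped by role, in females and males, with the SE as a line and filled points where padj is under 0.1 by edgeR. Filled points lie right of 0 for 17 genes and left of 0 for 6 genes in males, and Cd55, Susd4, Csmd1 and Csmd3 are left of 0 and filled in both sexes.

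The protein-coding genes outside the complement lists whose level followed each pattern most closely were named by Pearson correlation of log2 level over the 10 libraries, among 13629 genes with a mean of at least 1 TPM. The libraries share groups, so these values describe likeness only. For the mean of the C1q chains they were Cetn3 (0.998), Tmem50a (0.993), Utp11 (0.991), the chemokine gene Ccl9 (0.991) and C1galt1c1 (0.991). C1ra was closest to the cytokine gene Il15 (0.978), Foxo4 (0.977) and Mob1a (0.976), and C4b to Epc1 (0.978), Scamp2 (0.973) and B2m (0.971), the light chain of MHC class I. C3 was closest to Ss18 (0.987), Hnrnpa2b1 (0.985) and Fxyd6 (0.983), and Cfb to Prrx1 (0.985), Ackr3 (0.969) and Wfdc1 (0.967). C3ar1 was closest to Xrcc4 (0.977), Sar1a (0.975) and the monocyte chemokine receptor gene Ccr2 (0.973), and Serping1 to Ccl9 (0.987), Srsf3 (0.987) and the macrophage marker Cd68 (0.986).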

How the data were processed

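The authors prepared poly-A, stranded libraries, trimmed reads with Trimmomatic 0.39 and quantified Gencode M27 transcripts (GRCm39) with Salmon 1.3.0, and their processing notes also name MultiQC 1.9 and DESeq2. Salmon's strand setting was not given in the sources used here. Deposited values are estimated counts per transcript, which are not normalized, and TPM, which the authors' Salmon run computed from counts and effective lengths. Estimated counts were summed per gene, rounded and tested in R 4.3.3 with edgeR 4.0.16 (TMM, effective length offset, filterByExpr with a minimum count of 10, robust quasi-likelihood F test), with all 4 group means estimated together. SE of log2FC came from the F value, and padj is Benjamini-Hochberg over 20836 genes, called under 0.1. The deposited TPM were multiplied by 1 factor per library to match the TMM scale. The common biological coefficient of variation was 0.129. The C1q to marker difference used log2(TPM + 0.1) of the markers.

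Group, sex and replicate number came from the sample labels. Libraries were treated as unpaired. Residuals of 13 same-number pairs correlated with r −0.0894 to 0.129. These were not set against pairs of different number, so this does not exclude pairing. Alternatives were RLE scaling, no filter on low counts, DESeq2 1.42.0, no length offset, a replicate block, the compared libraries only, summed paralogs and read-through models, and each library left out. The deposited TPM scale was added after seeing the data. The fit was tested on simulated data. The members and gene lists were chosen with earlier results of these data known, so no p is given for a score over the members. Named genes were the 9 members, other complement genes called in either sex, and the genes most like each pattern. A gene of the wider complement list is not reported here and is left out of its counts. Start regions come from a RefSeq table of GRCm38.p6, which differs from the build of the files, so no coordinate was converted.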

Additional observations from a re-analysis of the deposited data

Results flagged for a closer look

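Among the 36 tested genes of the wider complement list, 1 had levels that lay apart in opposite directions in the sexes, without overlap. Its female axotomy libraries all lay below and its male axotomy libraries all above the sham libraries of their sex. Of all genes, 1.42% showed this pattern and 2.41% showed opposite directions without overlap either way round. Finding 1 such gene among 36 is thus close to the share among all genes. C5ar2, a receptor of C5a, stood at 0.487 and 0.566 rescaled TPM in female sham and 0.367, 0.432 and 0.476 in female axotomy libraries, and at 0.443 and 0.376 in male sham and 0.749, 0.538 and 0.840 in male axotomy libraries. The log2FC was −0.30 (padj = 0.449) in females, which was not called, and 0.77 (padj = 0.0322) in males by edgeR, a call lost without male sham 1 (padj = 0.102) or 2 (padj = 0.195). The male minus female difference in log2FC was 1.07 (SE 0.34, padj = 0.296 by edgeR) and was not called.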

How the results depend on the processing

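With each library left out in turn, the number of the 9 genes called was 7 to 9 in males (22.8% to 48.0% of all genes), 0 to 3 in females (3.98% to 27%), 7 to 9 for the mean of the sexes (33.5% to 51.8%), 0 to 8 for the difference between the responses (0% to 10.5%) and 0 to 8 between the sexes after axotomy (0.125% to 17.3%). The highest of each in females and between the sexes came without male axotomy 2. In males the lowest came without male sham 1, when C1ra and Cfb were lost. A group left with 1 sham library was assumed to vary like the others. The other complement genes called numbered 0 to 7 in females and 13 to 23 in males. Members called in females were 1 with DESeq2 (26.5% of all genes) and 3 with the compared libraries only (28.7%). For the difference between the responses they were 1 without a filter on low counts (0.533%) and 6 with DESeq2 (3.12%), and for the sexes after axotomy 3 with DESeq2 (7.56%). Without a filter, 4 other complement genes were called in females (10.3% of all genes). The shift of C1q relative to macrophage markers was 0.17 to 0.26 with single libraries left out and 0.19 without male sham 2. It was 0.13 with 4 macrophage markers. A pseudocount of 1 TPM, added to the markers only, gave 0.36, a larger value by construction. No result reversed.

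The labels do not say whether same-numbered libraries share more than a number. With the replicate block, 8 of the 9 genes were called in males (Cfb padj = 0.102; 41.8% of all genes), 0 in females (23.9%), 7 for the mean of the sexes (45.3%) and 1 (C3) for the difference between the responses (0.413%).

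C1ra in the mean of the sexes lost its call in 9 of 17 alternatives. With 2 sham libraries per sex, intervals were wide, and Cfb and C3ar1 rested on 74.0 to 268 counts per library.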
